A study of Mus musculus with 12 samples.

Results

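The genes described here are the proteasome subunit genes of the mouse heart, measured by RNA sequencing in Cd163 knockout and wild-type mice after pressure overload or sham surgery. They were taken as every protein-coding gene of the deposited count table whose mouse symbol begins with Psma, Psmb, Psmc, Psmd or Psme followed by a digit. The rule found 45 of the 55357 gene identifiers in the table, and it used no measured value. By role they are 7 alpha-ring genes of the 20S core (Psma1 to Psma7), 4 structural beta-ring genes (Psmb1 to Psmb4), 3 standard catalytic genes (Psmb5, Psmb6, Psmb7), 3 immunoproteasome catalytic genes (Psmb8, Psmb9, Psmb10), 6 ATPases and 11 other subunits of the 19S cap, 3 assembly chaperones of that cap (Psmd5, Psmd9, Psmd10), 5 activator genes (Psme1, Psme2, Psme2b, Psme3, Psme4) and 2 tissue-restricted core genes (Psma8, Psmb11). The last, Psmc3ip, matched by spelling only: it encodes a partner of meiotic recombination proteins and is no proteasome subunit. It is kept because the rule names it.

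The 12 libraries came from hearts of male mice in 4 groups of 3 libraries each. KO TAC hearts were from Cd163-/- mice on a C57BL/6J background whose transverse aorta was narrowed at 8 weeks of age by a tie around a 27-gauge needle (transverse aortic constriction, TAC). WT TAC hearts were from C57BL/6J mice with the same operation. KO sham hearts (Cd163-/-) and WT sham hearts (C57BL/6J) were from mice operated on without the tie. Cd163 encodes a scavenger receptor of macrophages, and the knockout was not said to be restricted to any cell type. The time between operation and tissue collection, the part of the heart taken and the animals or pools behind each library are not given in the labels, and the p-values below reflect variation among these libraries, which may be partly technical.

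The proteasome degrades proteins that carry ubiquitin chains. Its 20S core is a barrel of alpha and beta rings in which 3 beta subunits cut peptide bonds, and the 19S cap binds ubiquitin, removes it, unfolds the substrate with its ATPase ring and feeds it into the barrel. When interferon signalling or immune activity is high, cells can replace the 3 standard catalytic subunits by Psmb8, Psmb9 and Psmb10, which changes the peptides made for MHC class I presentation, and the 11S activator of Psme1 and Psme2 can dock in place of the cap. In heart muscle the ubiquitin-proteasome system takes part in the turnover of sarcomere proteins.

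Library totals ran from 14150109 to 22602225 counts. Cd163 itself had 46 to 112 counts in the 6 knockout libraries and 255 to 592 in the 6 wild-type libraries, which did not overlap. The libraries differed in ways that the groups do not explain. Mitochondrial genes held 44.0% to 51.3% of the counts in the KO TAC libraries and 51.0% in KO sham replicate 1, while the remaining 8 libraries had 24.8% to 36.9%. On the first principal component of the 1000 most variable genes (66.7% of their variance) KO sham replicate 1, at 44.6, lay among the KO TAC libraries at 40.4 to 44.9, WT TAC replicate 1 lay between at 6.69, and the other 7 lay at -32.9 to -17.9. The proteasome genes shared this pattern: in KO sham replicate 1, 38 of the 44 tested genes (86.4%, against 80.4% of all genes tested) were nearer to the KO TAC mean than to the mean of KO sham replicates 2 and 3. The summed level of 4 atrial cardiomyocyte markers was 323 to 1514 CPM (counts scaled to a common library total) in KO TAC, 2.67 to 9.51 CPM in WT TAC, 154 to 1832 CPM in KO sham and 21.1 to 901 CPM in WT sham. That of 7 other cardiomyocyte markers (Myh6, Tnnt2, Actc1, Tnni3, Pln, Ryr2, Myl2) was 31567 to 34570 CPM in KO TAC and 46696 to 48684 CPM in WT TAC. In KO sham it was 24847 to 45254 CPM and in WT sham 50742 to 52517 CPM. The summed cardiomyocyte markers were thus high in every library, as the label heart asks. In the edgeR test described below, all 4 atrial markers were called higher in KO TAC than in WT TAC (background 8.63% of all genes). Of the 7 other cardiomyocyte markers, 3 were called lower (Actc1, Pln, Ryr2), against a background of 11.7%. The part of these differences in the results below was not tested. In these bulk samples fewer cells of a type and less RNA per cell cannot be told apart.

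Levels are given as CPM after scaling the library totals by the trimmed mean of M-values (TMM), and levels of different genes are compared only as CPM per kilobase of spliced transcript. Averaged over the 12 libraries, the highest gene was the standard catalytic subunit Psmb6 at 110.8 CPM per kb, followed by the structural beta gene Psmb4 at 94.1 and the ATPase Psmc3 at 91.6 CPM per kb. Over libraries the standard deviation was 18.0 CPM per kb for Psmb6 and 15.1 CPM per kb for Psmb4, and Psmb6 ranked above Psmb4 in the mean of each of the 4 groups. The lowest detected genes were Psma8, a testis-specific alpha subunit, at 0.281 CPM per kb, Psmc3ip at 1.32 CPM per kb and the cap chaperone Psmd5 at 3.18 CPM per kb. Psmb11, the catalytic subunit of the thymus epithelium, had 0 counts in every library, which allows up to 3 counts in a library and covers counting error only. It was the one gene of the 45 that failed the filter on low counts, and 44 were tested. Psma8 passed it with 2 to 22 counts in a library.

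The catalytic subunits come in pairs: Psmb8 replaces Psmb5 (chymotrypsin-like activity), Psmb9 replaces Psmb6 (caspase-like activity) and Psmb10 replaces Psmb7 (trypsin-like activity). No promoter sequence was available for Psmb7, and the pair of Psmb10 and Psmb7 is not shown. The 150 bases before the start of both members of the first 2 pairs are shown because the level of the immunoproteasome member relative to its standard counterpart differed between libraries. They are written 5′ to 3′ on the gene's own strand, from RefSeq on GRCm38.p6, with the capitals marking a gamma-activated sequence (GAS) match in Psmb8, antioxidant response element (ARE) matches in Psmb5 and Psmb6, and a CCAAT box read on the opposite strand in Psmb9. The windows are chr17:34198045-34198194 on the plus strand for Psmb8, chr14:54617996-54618145 on the minus strand for Psmb5, chr17:34187331-34187480 on the minus strand for Psmb9 and chr11:70525207-70525356 on the plus strand for Psmb6.
Psmb8: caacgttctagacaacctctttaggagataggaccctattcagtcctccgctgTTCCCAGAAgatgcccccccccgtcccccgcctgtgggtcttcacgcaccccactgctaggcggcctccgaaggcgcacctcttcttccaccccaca
Psmb5: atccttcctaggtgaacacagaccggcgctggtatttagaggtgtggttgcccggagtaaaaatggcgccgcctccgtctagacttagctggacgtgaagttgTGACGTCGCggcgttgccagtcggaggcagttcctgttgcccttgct
Psmb9: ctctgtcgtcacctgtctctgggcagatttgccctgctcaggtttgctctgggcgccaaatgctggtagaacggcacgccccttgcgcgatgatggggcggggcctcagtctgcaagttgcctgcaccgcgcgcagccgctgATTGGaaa
Psmb6: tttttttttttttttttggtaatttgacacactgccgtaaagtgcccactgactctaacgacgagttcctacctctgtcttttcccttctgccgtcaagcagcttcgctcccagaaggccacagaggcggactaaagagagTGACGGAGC
RefSeq windows of 250 bases before to 50 after the start were found for 38 of the 45 genes and searched on both strands for 4 motifs that do not overlap one another in the sequences shown. The GAS letters TTCNNNGAA, bound by interferon-activated STAT factors, were found in 2 of the 38 genes (5.26%, against 9.55% of all 27025 genes with a window), Psmb8 and the cap subunit Psmd2. The ARE letters TGACNNNGC, bound by the Nfe2l1 and Nfe2l2 factors, were found in 6 genes (15.8%, against 14% of all), Psmb5, Psmb6, Psmc6, Psmd9, Psmd12 and Psme4. The core of the interferon-stimulated response element, which is GAAA, any 2 bases and GAAA again, was found in 4 genes (10.5%, against 3.99% of all), Psmb3, Psmd4, Psmd9 and Psme1. CCAAT was found in 15 genes (39.5%, against 41.1% of all). A match is a run of letters and not a measured binding site.

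The immunoproteasome genes were high in the same libraries. Psmb8 stood at 19.1, 26.6 and 31.0 CPM in KO TAC, at 22.9, 8.39 and 9.26 CPM in WT TAC, at 20.1, 6.20 and 6.14 CPM in KO sham, and at 8.21, 5.13 and 9.50 CPM in WT sham. Psmb9 stood at 8.83, 13.2 and 15.5 CPM in KO TAC, at 15.4, 6.18 and 5.66 CPM in WT TAC, at 10.9, 4.64 and 6.42 CPM in KO sham, and at 6.14, 4.58 and 7.26 CPM in WT sham. For both genes the 3 KO TAC libraries, WT TAC replicate 1 and KO sham replicate 1 were the 5 highest of the 12, so that WT TAC and KO sham overlapped KO TAC by 1 library each. Psmb10 had 37.0, 40.7 and 41.8 CPM in KO TAC, 45.8, 27.4 and 34.6 CPM in WT TAC, 35.6, 23.0 and 22.2 CPM in KO sham, and 24.8, 20.3 and 25.9 CPM in WT sham. Its range was narrower, and all TAC libraries of either genotype lay above all sham libraries of that genotype. Per kilobase and averaged over KO TAC hearts, Psmb8 (15.7 CPM per kb) and Psmb9 (9.25 CPM per kb) remained below Psmb5 (75.1 CPM per kb) and Psmb6 (115 CPM per kb).

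The standard catalytic genes Psmb5 and Psmb6 were not low where their counterparts were high. Psmb5 had 66.1, 65.2 and 71.3 CPM in KO TAC, 91.8, 75.3 and 73.1 CPM in WT TAC, 62.6, 53.9 and 53.4 CPM in KO sham, and 52.4, 44.0 and 62.0 CPM in WT sham. Psmb6 had 92.6, 91.1 and 92.3 CPM in KO TAC, 120, 99.2 and 95.4 CPM in WT TAC, 83.6, 71.7 and 75.8 CPM in KO sham, and 78.9, 66.7 and 93.8 CPM in WT sham. Both were highest in WT TAC, and in KO TAC both lay between WT TAC and KO sham without overlap. Psmb7 behaved otherwise: it had 14.0, 11.8 and 14.8 CPM in KO TAC, 35.3, 70.0 and 75.7 CPM in WT TAC, 13.0, 69.4 and 72.2 CPM in KO sham, and 67.2, 62.5 and 67.5 CPM in WT sham. The 3 KO TAC libraries and KO sham replicate 1 lay below 15 CPM, WT TAC replicate 1 lay between, and the other 7 lay above 60 CPM.

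**Figure D1:**
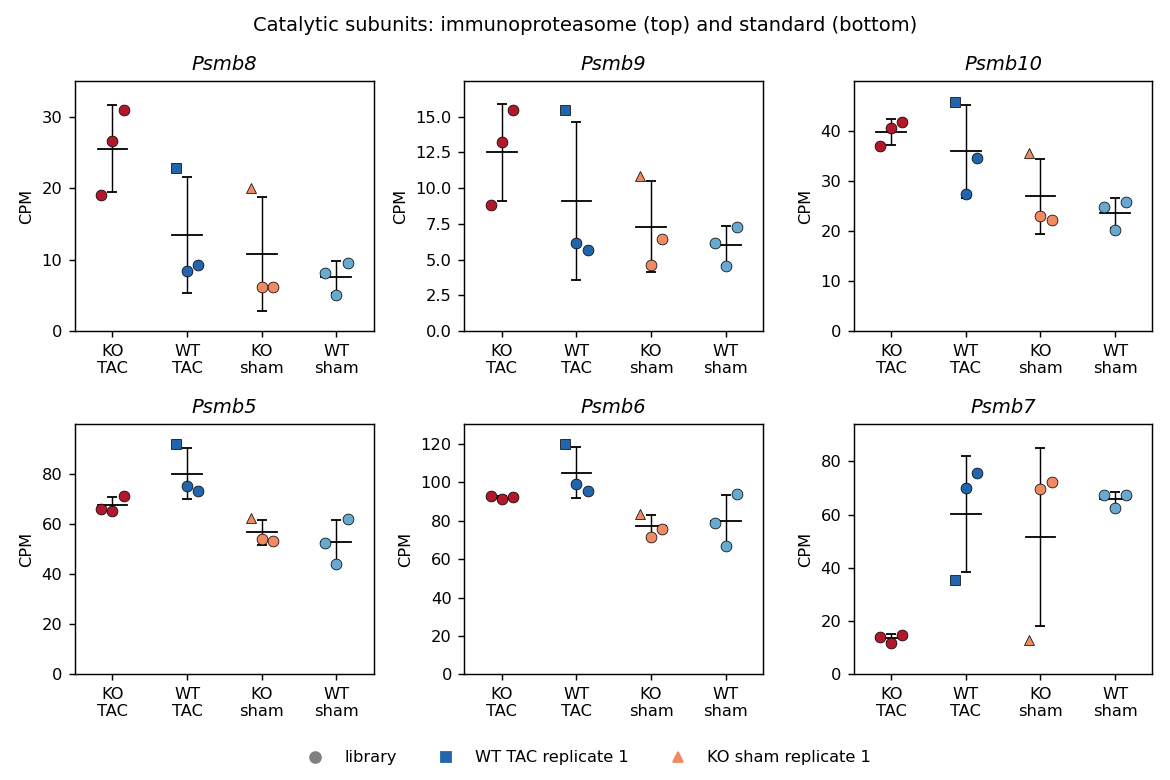
Level in TMM-scaled CPM of each catalytic subunit in each of the 12 libraries (immunoproteasome genes in the top row, their standard counterparts below), with the group mean as a line and the SD as a bar (n = 3). WT TAC replicate 1 is drawn as a square and KO sham replicate 1 as a triangle, and these lie with or towards the KO TAC libraries for Psmb8, Psmb9 and Psmb7.

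Psmb7 also stood apart from the other beta genes within a library, a comparison chosen after its values were seen and given without a test. Per kilobase, its level was 16.3%, 13.7% and 16.7% of the median of Psmb1 to Psmb6 in KO TAC, 29.8%, 68.7% and 77.4% in WT TAC, 16.1%, 92.7% and 92.3% in KO sham, and 87.9%, 90.6% and 76.2% in WT sham. Among the 14 alpha and standard beta genes it ranked 14th from the highest by group mean in KO TAC (11.7 CPM per kb), 11th in WT TAC (52.0 CPM per kb), 11th in KO sham (44.4 CPM per kb) and 10th in WT sham (56.7 CPM per kb). No other core gene in KO TAC was as far below its WT TAC level.

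KO TAC against WT TAC compares the genotypes under pressure overload. In the edgeR quasi-likelihood test with Benjamini-Hochberg adjustment over 15804 genes, 11 of the 44 proteasome genes were lower in KO TAC and 0 were higher, at an adjusted p under 0.05. That is to be read against a background of 20.4% of all genes called, 11.7% lower and 8.63% higher. Of the 44 genes, 36 had a negative log2 fold change and 8 a positive one, with a median of -0.37 against -0.02 over all genes tested. The 3 KO TAC libraries lay below the 3 WT TAC libraries for 29 of the 44 (background 24.3%) and above them for 0 (background 22.7%; 46.9% in either direction). At an unadjusted p under 0.05 there were 24 of the 44, against 40.8% of all genes.

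The core genes called lower in KO TAC than in WT TAC were Psmb7, Psma5 and Psmb2. Psmb7 averaged 13.5 ± 1.55 CPM in KO TAC and 60.3 ± 21.9 CPM in WT TAC (SD, n = 3 each), a log2 fold change of -2.15 ± 0.50 (SE) or 4.45-fold lower, with an adjusted p of 0.0228. Psma5, of the alpha ring that gates the core, stood at 29.4, 27.3 and 28.3 CPM in KO TAC and at 39.0, 39.8 and 45.9 CPM in WT TAC (log2 fold change -0.55 ± 0.12, adjusted p = 0.0198). It had the smallest adjusted p of the 44, with no overlap and a narrow spread in both groups. Psmb2, a structural beta subunit, averaged 41.6 ± 0.614 CPM in KO TAC and 62.0 ± 2.42 CPM in WT TAC (log2 fold change -0.58, adjusted p = 0.0303). Thus 1 of 7 alpha genes, 1 of 4 structural beta genes and 1 of 3 standard catalytic genes passed the test, with medians of -0.37, -0.30 and -0.25. Psmb5 (-0.25, adjusted p = 0.255) and Psmb6 (-0.19, adjusted p = 0.380) were not called, although their libraries did not overlap.

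The cap genes held 7 of the 11 calls. Psmc2, an ATPase of the ring that unfolds substrates, had 45.3, 46.1 and 46.4 CPM in KO TAC and 67.2, 84.4 and 82.6 CPM in WT TAC (log2 fold change -0.76 ± 0.17, adjusted p = 0.0216). Psmc5, another of the 6 ATPases, was the second called (-0.41, adjusted p = 0.0416), and the 6 had a median of -0.39. Psmd14, the deubiquitinase that cuts ubiquitin chains from substrates, had 25.9, 24.2 and 26.5 CPM in KO TAC and 37.4, 48.4 and 46.7 CPM in WT TAC (-0.79 ± 0.18, adjusted p = 0.0216). Psmd12, a scaffold subunit of the lid in which Psmd14 sits, had 42.1, 44.6 and 42.7 CPM in KO TAC and 67.7, 101 and 99.4 CPM in WT TAC (-1.05 ± 0.24, adjusted p = 0.0228). For each of these 3 genes the KO TAC libraries lay within 3 CPM of one another and below every WT TAC library. The lid subunits Psmd6 (-0.68, adjusted p = 0.0236), Psmd13 (-0.79, adjusted p = 0.0289) and Psmd7 (-0.72, adjusted p = 0.0431) were also called, making 5 of the 11 non-ATPase genes, whose median was -0.72. The 2 largest base subunits, Psmd1 (-0.81, adjusted p = 0.0740) and Psmd2 (-0.77, adjusted p = 0.0513), were not called. Psmd4, a ubiquitin receptor of the cap, went the other way in sign, at 111, 115 and 106 CPM in KO TAC and 112, 96.3 and 108 CPM in WT TAC, with overlap and no call. The 3 cap chaperones had a median of -0.31 and none was called.

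Of the activators, Psme1 was lower in KO TAC than in WT TAC and its partner Psme2 was not. Psme1, the alpha subunit of the 11S ring, had 51.1, 51.2 and 57.2 CPM in KO TAC and 101, 79.8 and 86.5 CPM in WT TAC (-0.75 ± 0.18, adjusted p = 0.0233). Psme2, the beta subunit, had 40.2, 41.9 and 40.3 CPM in KO TAC and 48.7, 33.7 and 32.0 CPM in WT TAC (0.10 ± 0.22, adjusted p = 0.759). The ratio of Psme1 to Psme2 counts, chosen after the values were seen and not tested, was 1.27, 1.22 and 1.42 in KO TAC, 2.08, 2.37 and 2.71 in WT TAC, 1.26, 2.72 and 2.88 in KO sham, and 2.82, 2.98 and 2.67 in WT sham. The KO TAC libraries and KO sham replicate 1 were the 4 lowest. Psme2b (-0.40, adjusted p = 0.0947) is a near-identical copy of Psme2, so how reads were divided between the 2 genes is uncertain. Psme3, which forms the nuclear 11S ring, had 31.6, 31.3 and 25.8 CPM in KO TAC and 35.2, 54.0 and 48.7 CPM in WT TAC (-0.64 ± 0.22, adjusted p = 0.0581). Psme4, the single-chain activator PA200, had 119, 128 and 125 CPM in KO TAC and 160, 276 and 310 CPM in WT TAC (2.01-fold lower, SE 0.35 on the log2 scale, adjusted p = 0.0595). The groups did not overlap for Psme3 or Psme4, yet neither gene passed the threshold.

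The immunoproteasome genes were not called in this comparison. Their log2 fold changes were 0.92 ± 0.49 for Psmb8 (adjusted p = 0.175), 0.46 ± 0.41 for Psmb9 (adjusted p = 0.410) and 0.15 ± 0.22 for Psmb10 (adjusted p = 0.627), and WT TAC replicate 1 overlapped KO TAC in all 3. Psmc3ip, the gene matched by spelling, had 0.25 ± 0.29 (adjusted p = 0.530). The calls rested on few libraries. Leaving out any 1 KO TAC library, or WT TAC replicate 3 or 5, left 0 of the 44 called. The share of all genes called in those fits is not given here, so the 0 does not set the proteasome genes apart. In 9 of the 11 genes called, WT TAC replicate 1 was the lowest WT TAC library, and without it 21 were called (19 lower and 2 higher, Psmb8 at 1.54 and Psmb9 at 1.09; background 33.6%).

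KO sham replicate 1 had 46 Cd163 counts, the fewest of the 6 knockout libraries, but whether its label as a sham heart is right cannot be settled from the labels, and it is kept as labelled in every KO sham mean and comparison. Because KO sham replicate 1 and WT TAC replicate 1 stood apart, every comparison was also fitted without them, an alternative chosen after the data were seen. Without KO sham replicate 1, which adds to the shared estimate of spread, 24 of the 44 genes differed between KO TAC and WT TAC (23 lower and 1 higher; background 40.7%). Without both libraries 28 differed (25 lower and 3 higher; background 53.8%, 27.7% lower and 26.1% higher). The 3 higher were the immunoproteasome genes: Psmb8 at 1.54 ± 0.24 (adjusted p = 0.000214), Psmb9 at 1.08 (adjusted p = 0.00246) and Psmb10 at 0.37 (adjusted p = 0.0307) in the same edgeR test. Psmb7 stood at -2.42 ± 0.11 (adjusted p = 7.43e-09), and 10 of the 11 non-ATPase cap genes were lower. Psmd4 was the exception.

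**Figure D2:**
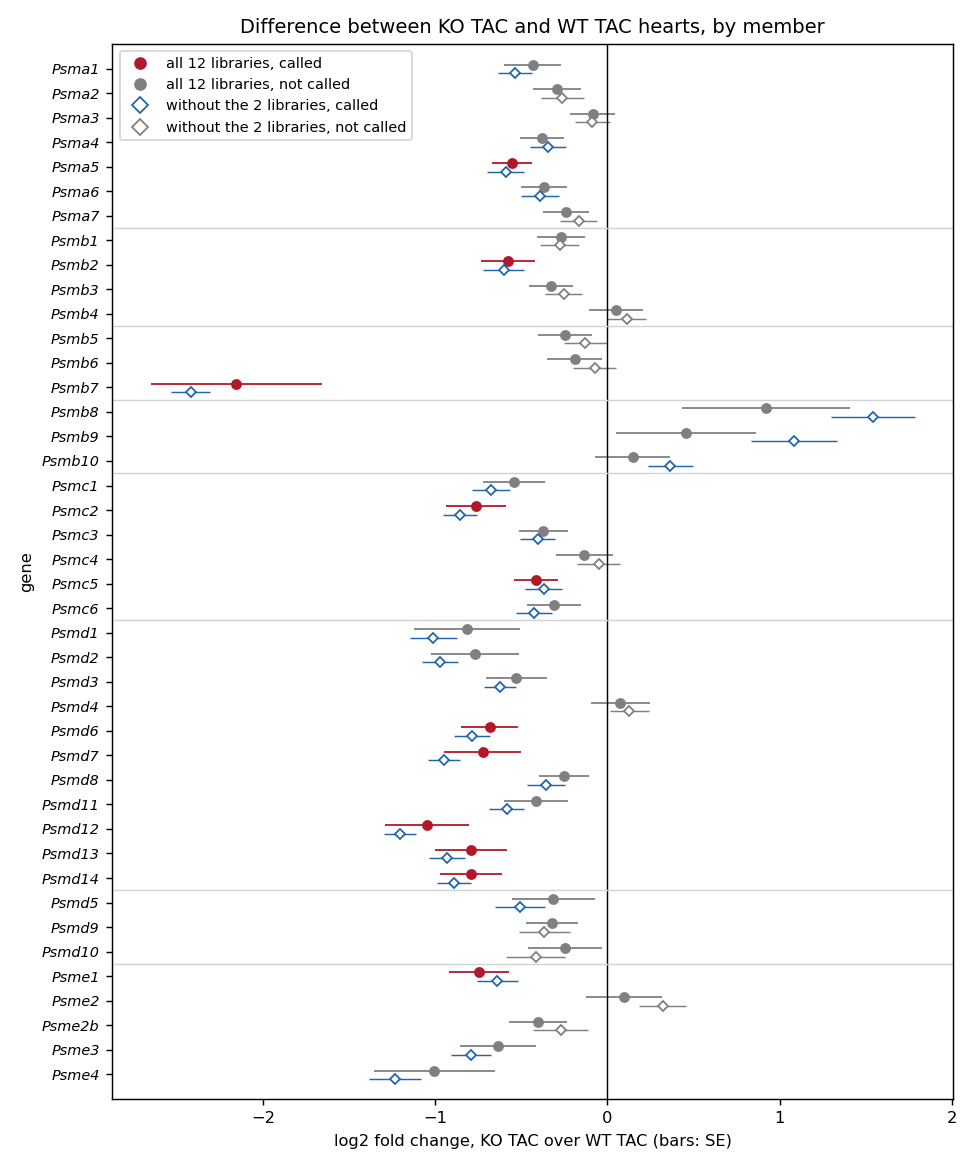
Log2 fold change of KO TAC over WT TAC hearts for each tested subunit gene other than Psma8, ordered by role, with bars for the SE. Filled circles are the fit of all 12 libraries (red where the adjusted p is under 0.05) and open diamonds the fit with WT TAC replicate 1 and KO sham replicate 1 left out (blue where called); most genes lie left of 0, Psmb7 farthest, and Psmb8 and Psmb9 lie right of it.

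KO sham against WT sham compares the genotypes without pressure overload. Of the 44 genes, 0 were called by edgeR (background 0.00633%), and DESeq2 and limma-voom also called 0, with 1 gene at an unadjusted p under 0.05 (background 13.5%). The median log2 fold change was -0.06 against 0.01 over all genes, with 15 positive and 29 negative. The gene under an unadjusted p of 0.05 was Psme1, with 50.2, 70.6 and 71.1 CPM in KO sham and 82.7, 72.8 and 96.95 CPM in WT sham (-0.40 ± 0.17, adjusted p = 0.357). Next came the ATPases Psmc3 (-0.24, adjusted p = 0.442) and Psmc1 (-0.29, adjusted p = 0.456), and on the positive side the ATPase Psmc4 (0.18, adjusted p = 0.581), Psmb8 (0.49, adjusted p = 0.623) and Psmb10 (0.18, adjusted p = 0.671). For Psma6, Psmc1, Psmc3, Psmd7, Psmd12 and Psme1 the KO sham libraries lay below the WT sham libraries, which is 6 of 44 (background 10.4%). For Psmb7, 1 KO sham library at 13.0 CPM lay far below the other 2 at 69.4 and 72.2 CPM, and the log2 fold change was -0.35 ± 0.47 with it and 0.11 without it. For Psmb8 the value was 0.49 with that library and -0.30 without it, a fit in which 0 of the 44 genes were called (background 0.241%, 0.0803% higher and 0.161% lower).

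WT TAC against WT sham gives the effect of pressure overload in wild-type hearts. Here 35 of the 44 genes had positive and 9 had negative log2 fold changes, with a median of 0.18 against 0.01 over all genes, but edgeR called 0 (background 0.0316%, 0.0253% higher). At an unadjusted p under 0.05 there were 13 (background 16.2%), and DESeq2 and limma-voom called 6 each (share of all genes not given here). All WT TAC libraries lay above all WT sham libraries for 16 of the 44 (background 13.4%), namely 5 alpha genes, Psmb1, Psmb3 to Psmb6, Psmb10, Psmc3, Psmc4, Psmc5, Psmd4 and Psmd14. Psma5 had 39.0, 39.8 and 45.9 CPM in WT TAC and 30.0, 27.9 and 32.1 CPM in WT sham (0.47 ± 0.12, adjusted p = 0.138). Psmb5, with 91.8, 75.3 and 73.1 CPM in WT TAC and 52.4, 44.0 and 62.0 CPM in WT sham, had 0.60 ± 0.16 (adjusted p = 0.154). Psma4, another alpha gene, averaged 110 ± 3.99 CPM in WT TAC and 82.1 ± 7.27 CPM in WT sham (SD, n = 3 each; 0.42 ± 0.13, adjusted p = 0.190). Each of the 3 was separated in every library, while none passed the adjusted threshold. On the negative side the smallest p-values belonged to Psmd1 (-0.34, adjusted p = 0.575), Psmd5 (-0.22, adjusted p = 0.642) and Psmc3ip (-0.25, adjusted p = 0.656). The immunoproteasome genes had 0.83 ± 0.50 for Psmb8, 0.61 ± 0.41 for Psmb9 and 0.61 ± 0.22 for Psmb10 (adjusted p = 0.227 for the last). The values of Psmb8 and Psmb9 rested on WT TAC replicate 1, without which they were 0.22 and -0.02. Without KO sham replicate 1, 5 genes were called higher (Psma4, Psma5, Psma7, Psmb5 and Psmd4; background 6.53%, 3.4% higher and 3.14% lower), and without both libraries 7 were (Psma4, Psma5, Psmb5, Psmd4, Psmd6, Psmd7 and Psmd14; background 6.18%).

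KO TAC against KO sham gives the effect of pressure overload in knockout hearts. No gene of the 44 was called by edgeR (background 0%), with 14 at an unadjusted p under 0.05 (background 30.9%). DESeq2 called 2 and limma-voom 27 (shares of all genes not given here). The median was -0.10 against -0.02 over all genes, with 17 positive and 27 negative values. Psmb7 had 14.0, 11.8 and 14.8 CPM in KO TAC and 13.0, 69.4 and 72.2 CPM in KO sham (-1.93 ± 0.49, adjusted p = 0.103). Psmd12 had 42.1, 44.6 and 42.7 CPM in KO TAC and 42.4, 83.9 and 84.5 CPM in KO sham (-0.70 ± 0.24, adjusted p = 0.108). Psmc2 had 45.3, 46.1 and 46.4 CPM in KO TAC and 48.0, 73.1 and 72.3 CPM in KO sham (-0.49 ± 0.17, adjusted p = 0.112). In all 3 genes KO sham replicate 1 lay at the KO TAC level and the other 2 KO sham libraries far above it. On the positive side were Psmb10 (0.57 ± 0.22, adjusted p = 0.122), Psmd4 (0.44 ± 0.17, adjusted p = 0.124) and Psmb8 (1.26 ± 0.49, adjusted p = 0.126). All KO TAC libraries lay above all KO sham libraries for 8 genes (background 11.6%), which were Psma2, Psmb3, Psmb4, Psmb5, Psmb6, Psmb10, Psmd4 and Psme2, and below them for Psma5 and Psmc2 (background 10.8%).

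Without KO sham replicate 1, 24 of the 44 genes changed between KO TAC and KO sham (7 higher and 17 lower; background 47.6%, 22.4% higher and 25.2% lower). The 7 higher were Psmb8 (2.04 ± 0.41, adjusted p = 0.00198), Psmb9 (1.17), Psmb10 (0.81), Psma3, Psmb4, Psmd4 and Psme2, and Psmb7 (-2.39 ± 0.25) and Psme4 (-1.22) were among the 17 lower. The call count in knockout hearts thus depended on a single library, and the groups then hold 3 and 2 libraries.

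The interaction asks whether the effect of TAC differed between genotypes. Of the 44 genes, 0 were called by edgeR (background 0%), with 7 at an unadjusted p under 0.05 (background 9.19%). DESeq2 called 0 and limma-voom 20 (shares of all genes not given here). The median difference of TAC effects, knockout minus wild type, was -0.32 against -0.07 over all genes, and 39 of the 44 were negative. The smallest p-values belonged to Psma5 (-0.58 ± 0.17, adjusted p = 0.410), Psmd14 (-0.75 ± 0.25, adjusted p = 0.467) and Psmc2 (-0.66 ± 0.24, adjusted p = 0.503) among negative values, and to Psmc3ip (0.37), Psmb8 (0.43 ± 0.70, adjusted p = 0.855) and Psmb9 (0.18) among positive ones. Without KO sham replicate 1, 7 genes were called, all lower (background 12.1%, 7.45% lower and 4.66% higher). Without both libraries 24 were called (background 36.1%), of which 3 were higher, Psmb8 at 1.82, Psmb9 at 1.18 and Psme2 at 0.55, and 21 lower.

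**Figure D3:**
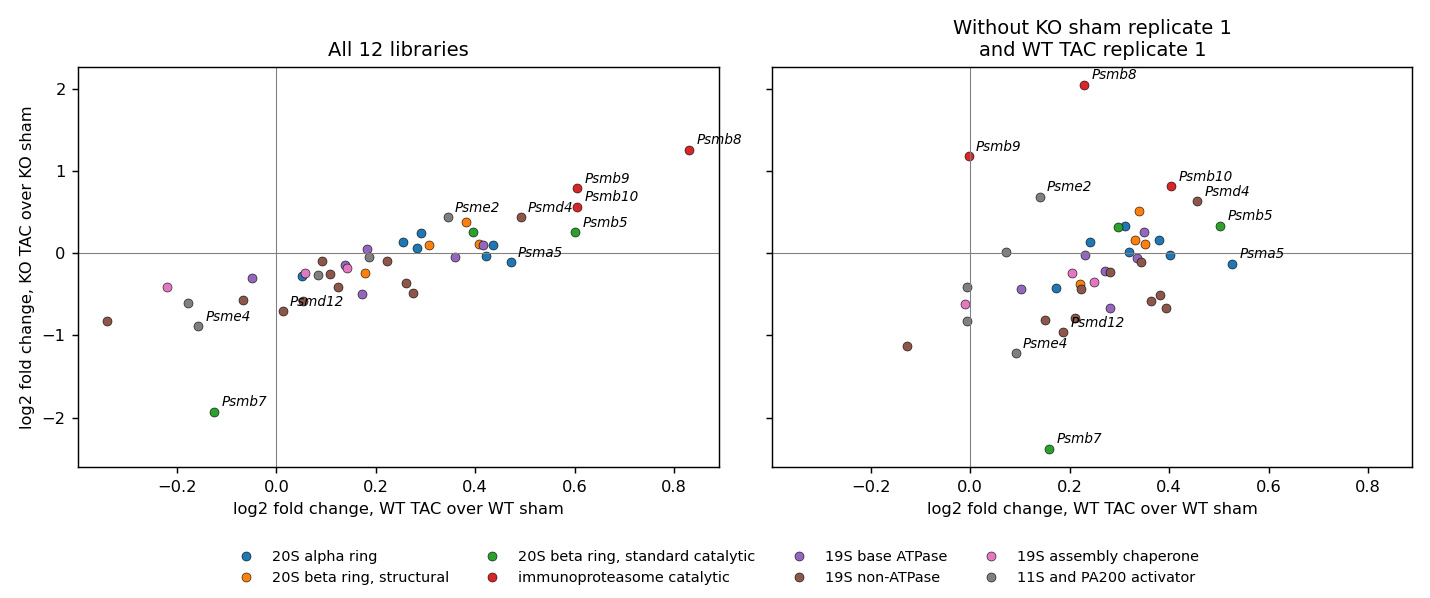
Log2 fold change of TAC over sham in knockout hearts (vertical) against wild-type hearts (horizontal) for each subunit gene, coloured by role, with all 12 libraries (left) and with WT TAC replicate 1 and KO sham replicate 1 left out (right). The axes share no library, and Psmb8 is at the top and Psmb7 at the bottom of both panels. Most non-ATPase cap genes move down and right when the 2 libraries are left out, with Psmd4 an exception.

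**Figure D4:**
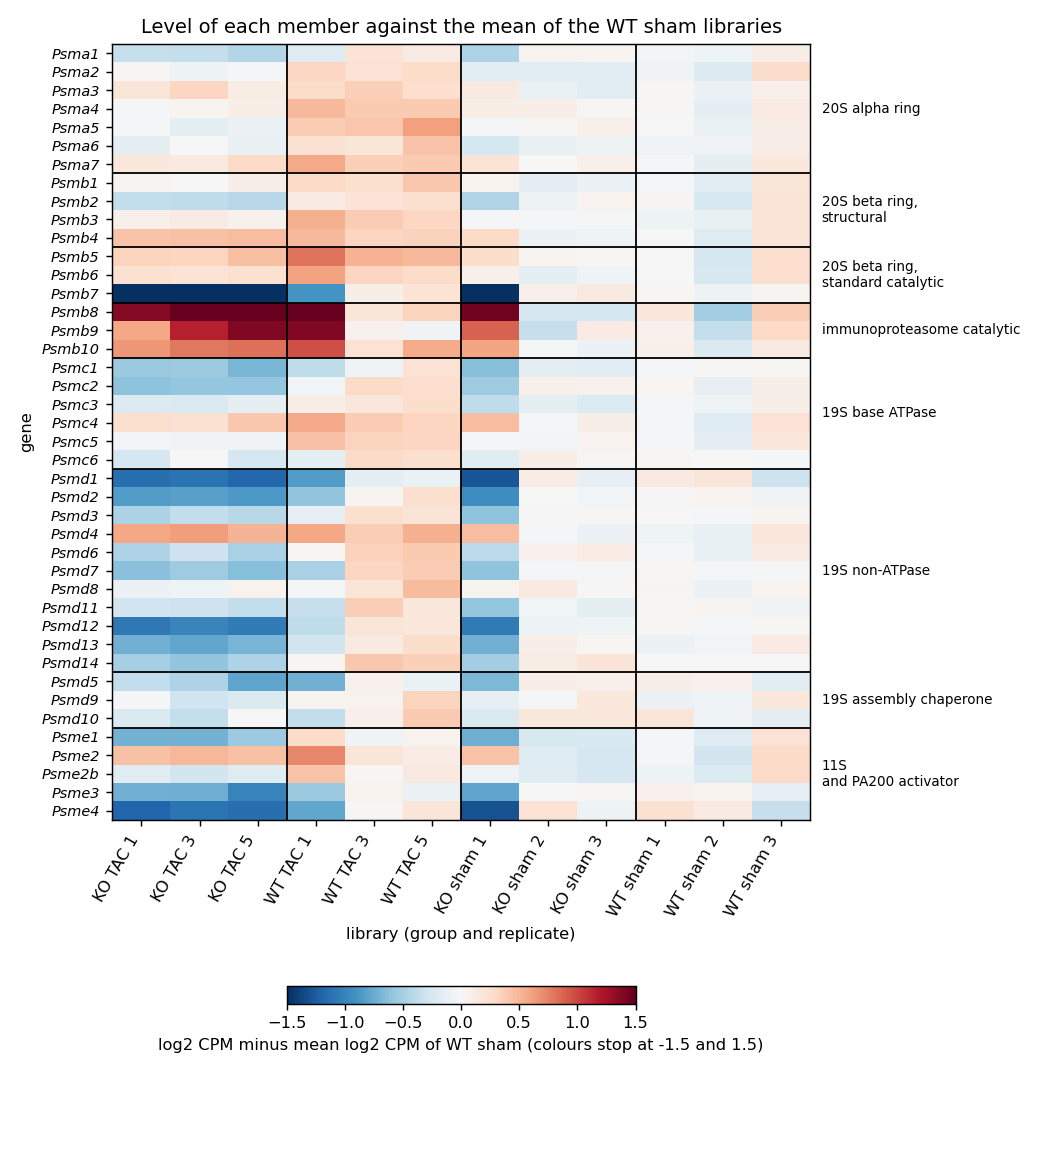
Level of each subunit gene (rows, by role) in each library (columns, by group), as log2 CPM minus the gene's mean log2 CPM in WT sham, with colours that stop at -1.5 and 1.5. KO sham replicate 1 resembles the 3 KO TAC columns, and in these 4 columns the immunoproteasome rows are high and Psmb7 and most cap rows low.

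Summed over roles, the KO TAC mean was the highest of the groups for the immunoproteasome genes. It was the lowest for the standard catalytic, non-ATPase cap and activator genes, but not for the alpha ring or the structural beta genes. The alpha ring summed to 434 CPM in KO TAC, 545 in WT TAC, 428 in KO sham and 441 in WT sham. The structural beta genes summed to 313 CPM in KO TAC, 361 in WT TAC, 281 in KO sham and 288 in WT sham. These sums are not corrected for length, so that genes with many counts weigh most. The immunoproteasome genes summed to 77.9 ± 11.9 CPM in KO TAC, 58.5 ± 22.5 CPM in WT TAC, 45.0 ± 18.6 CPM in KO sham and 37.2 ± 6.51 CPM in WT sham (SD, n = 3 each). The standard catalytic genes summed to 173 ± 5.21 CPM in KO TAC, 245 ± 1.67 CPM in WT TAC, 185 ± 22.8 CPM in KO sham and 198 ± 25.0 CPM in WT sham. The non-ATPase cap genes summed to 606 ± 10.4 CPM in KO TAC, 896 ± 160 CPM in WT TAC, 753 ± 154 CPM in KO sham and 843 ± 6.10 CPM in WT sham. The activators summed to 256 ± 4.55 CPM in KO TAC, 433 ± 67.3 CPM in WT TAC, 377 ± 122 CPM in KO sham and 454 ± 44.2 CPM in WT sham. Of these, Psme4 alone averaged 124 CPM in KO TAC and 249 CPM in WT TAC, while Psme2 averaged 40.8 and 38.1 CPM. The WT TAC libraries were closest together in the standard catalytic sum, the WT sham libraries in the non-ATPase sum and the KO TAC libraries in the activator sum. Within the WT TAC catalytic sum Psmb7 ranged from 35.3 to 75.7 CPM, and Psmb5 and Psmb6 were highest where Psmb7 was lowest. All 45 genes together made up 0.408% to 0.428% of a library's nuclear counts in KO TAC and 0.472% to 0.498% in WT TAC. In KO sham the share was 0.423% to 0.447% and in WT sham 0.412% to 0.450%. By this measure KO TAC overlapped both sham groups.

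Within the cap the ubiquitin receptor Psmd4 and the scaffold Psmd2 took opposite courses, a pair chosen after its values were seen and not tested. The ratio of Psmd4 to Psmd2 counts was 1.22, 1.26 and 1.19 in KO TAC, 1.04, 0.579 and 0.564 in WT TAC, 1.21, 0.451 and 0.446 in KO sham, and 0.437, 0.415 and 0.538 in WT sham. It is not corrected for length, so that it compares libraries and not the 2 genes. The ratio was 1.04 or more in the 3 KO TAC libraries, WT TAC replicate 1 and KO sham replicate 1, and below 0.6 in the other 7.

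The balance between immunoproteasome and standard catalytic subunits was measured as the ratio of their levels within a library, in percent and without correction for length, so that it compares libraries and not the 2 genes. Psmb8 was 28.9%, 40.8% and 43.5% of Psmb5 in KO TAC, 24.9%, 11.1% and 12.7% in WT TAC, 32.1%, 11.5% and 11.5% in KO sham, and 15.7%, 11.7% and 15.3% in WT sham. Psmb9 was 9.53%, 14.5% and 16.8% of Psmb6 in KO TAC, 12.8%, 6.23% and 5.93% in WT TAC, 13.0%, 6.48% and 8.47% in KO sham, and 7.78%, 6.87% and 7.74% in WT sham. Psmb10 was 264%, 344% and 282% of Psmb7 in KO TAC, 130%, 39.2% and 45.8% in WT TAC, 274%, 33.1% and 30.7% in KO sham, and 36.9%, 32.4% and 38.3% in WT sham. In all 3 pairs the 3 KO TAC libraries, WT TAC replicate 1 and KO sham replicate 1 held the 5 highest ratios. On the log2 scale KO TAC exceeded WT TAC by 1.29 for Psmb8 to Psmb5 (exact two-sided permutation p = 0.1) and by 2.26 for Psmb10 to Psmb7 (exact permutation p = 0.1), both without overlap, and by 0.76 for Psmb9 to Psmb6 (exact permutation p = 0.2), with overlap. With 3 libraries against 3 the smallest p is 0.1, and over the 12 ratio tests the smallest Benjamini-Hochberg adjusted p was 0.343, so none could pass the threshold.

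**Figure D5:**
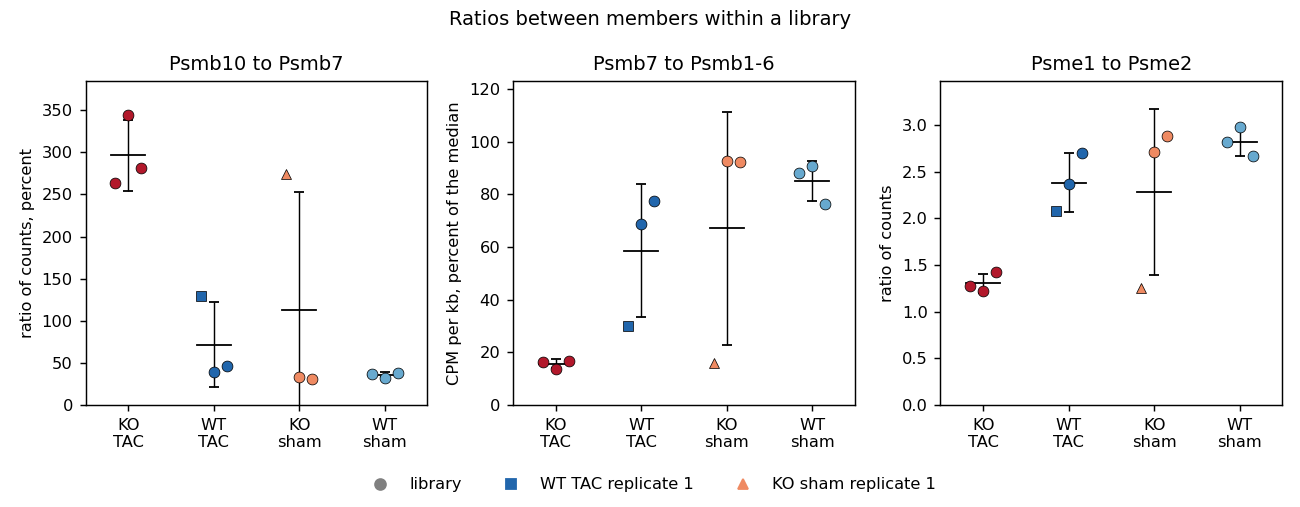
Psmb10 counts as a percent of Psmb7 counts (left), Psmb7 CPM per kb as a percent of the median of Psmb1 to Psmb6 (middle) and Psme1 counts over Psme2 counts (right) in each library, with the group mean as a line and the SD as a bar (n = 3; the KO sham bar on the left is cut at 0). The KO TAC libraries are high on the left and low in the other panels, with KO sham replicate 1 (triangle) among them and WT TAC replicate 1 (square) towards them on the left and in the middle.

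Other genes of the pathway were read from lists that the rule does not cover. In KO TAC against WT TAC the 6 regulators of proteasome gene expression held 2 higher and 1 lower call. Nfe2l1, the factor that induces subunit genes when proteasome activity falls short, had 154, 149.7 and 142.5 CPM in KO TAC and 190.0, 378 and 412 CPM in WT TAC (-1.13 ± 0.32, adjusted p = 0.0357). Nfe2l2, the factor of the oxidative stress response, had 84.1, 102 and 85.2 CPM in KO TAC and 48.1, 58.0 and 68.0 CPM in WT TAC (0.64 ± 0.15, adjusted p = 0.0236). Both were separated in every library, in opposite directions. Ddi2, the protease that activates the Nfe2l1 protein, was also higher (0.51 ± 0.13, adjusted p = 0.0288). Of 8 associated proteins outside the rule, Adrm1, a ubiquitin receptor of the cap, was lower (-0.53 ± 0.14, adjusted p = 0.0281), while Usp14, a deubiquitinase of the cap, was not called (-0.84, adjusted p = 0.0596). None of 5 assembly chaperones was called (Psmg4 0.48, adjusted p = 0.253), nor any of 6 ubiquitin and ubiquitin-activating enzyme genes (Uba1 -0.65, adjusted p = 0.0616). The background for these calls is again 20.4% of all genes.

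Further from the complex, edgeR called 1 of 9 shuttle and p97 genes higher and 2 lower, against the same background of 20.4%. Among them were Ubqln2 at 0.75 ± 0.16 (adjusted p = 0.0198) and Rad23b at -0.75 (adjusted p = 0.0416). Ubiquilins and Rad23 proteins carry ubiquitinated proteins to the proteasome. Of 10 muscle ubiquitin ligases 2 were lower, Trim54 (-1.48 ± 0.27, adjusted p = 0.0165) and Trim55 (-1.78 ± 0.51, adjusted p = 0.0353), which act at the sarcomere. None of 12 genes of MHC class I loading was called (Calr -0.56, adjusted p = 0.0644), and of 10 interferon signalling genes only Ifngr2, a chain of the interferon gamma receptor, was lower (-1.61 ± 0.49, adjusted p = 0.0412), with Irf1 at 0.72 (adjusted p = 0.0745). In the other 4 comparisons 0 genes of every list were called by edgeR. Without both libraries, again chosen after the data were seen, 6 of the 12 MHC class I genes were higher and 3 lower in KO TAC than in WT TAC, 5 of the 10 interferon genes were higher and 1 lower, and 8 of the 10 muscle ligases were lower (background 53.8%).

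Markers of immune cells, which carry the immunoproteasome in many tissues, were read in the same libraries. The 9 macrophage markers summed to 296 to 309 CPM in KO TAC and 238 to 272 CPM in WT sham. They stood at 308, 263 and 417 CPM in WT TAC and at 304, 321 and 345 CPM in KO sham. For these markers KO sham replicate 1 was the lowest of its group, and WT TAC replicate 1 lay between the others of its group. Of the 9, edgeR called 1, Cd68, lower in KO TAC than in WT TAC (background 11.7%). Summed T cell markers stood at 1.93, 3.52 and 8.00 CPM in KO TAC, 4.28, 1.34 and 2.12 CPM in WT TAC, 6.42, 1.97 and 3.09 CPM in KO sham, and 2.01, 1.59 and 1.24 CPM in WT sham, so that KO sham replicate 1 and WT TAC replicate 1 were the highest of their groups. The B cell markers Cd79a, Cd79b and Ms4a1 were low. Cd79a had 0.827, 0.939 and 0.721 CPM in KO TAC, 0.541, 0.430 and 0.653 CPM in WT TAC and 1.09 CPM in KO sham replicate 1; KO TAC lay above WT TAC in every library, but the gene was not called (0.60, adjusted p = 0.304). Ms4a1 (1.22, adjusted p = 0.131) and Cd79b (0.27, adjusted p = 0.559) were not called either. Summed neutrophil markers reached at most 5.24 CPM in a library and NK cell markers 1.08 CPM. Of 5 fibroblast markers 1 (Dcn) was called higher in KO TAC than in WT TAC by edgeR (background 8.63%). The part of these cells in the immunoproteasome values was not tested.

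Across the 12 libraries, the genes outside the rule whose level followed that of Psmb8 most closely were Nlrc5, an activator of MHC class I genes, and the class I gene H2-Q4 (Spearman rho 0.972 each), then the class I gene H2-K1, the NADPH oxidase subunit Cyba and Dennd6b (0.965 each). Among the proteasome genes Psme2 (0.958), Psmb10 (0.951), Psmb9 (0.902), Psmb4 (0.895) and Psmd4 (0.853) had the highest values with Psmb8, Psmd5 had the lowest (-0.916) and Psmb7 had -0.664. Psmb7 itself was followed most closely by Psmd13 (0.944), Psmd14 (0.916) and Psma1 (0.902). These values are descriptions over the same 12 libraries, which share the mitochondrial share and the principal component given above.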

How the data were processed

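Total RNA of 12 hearts' libraries was selected with oligo(dT), primed with random hexamers and sequenced as paired 150-base reads, per the labels' protocols. The deposited values are raw counts per Ensembl gene; reads were aligned with HISAT2, per the submitters' processing notes, and the counter, genome build, annotation and use of strand were not given in the sources used here. Overlapping and antisense genes therefore cannot be told apart. Symbols came from GENCODE M21, which matched 52081 of 55357 identifiers; 3276 were not matched, and 4 pseudogene rows with matching symbols were not used. R 4.3.3 with edgeR 4.0.16 fitted 1 model to all 4 groups (TMM, filterByExpr, robust quasi-likelihood, 8 residual degrees of freedom, Benjamini-Hochberg threshold 0.05 over 15804 genes). The script was tested on simulated counts. DESeq2 1.42.0 and limma 3.58.1 (voom with sample weights) were alternatives, with other scalings, no filter, each library left out, the compared groups alone and a replicate block. Ratios were tested by exact permutation. Full values were given for catalytic and activator genes and for up to 3 genes per direction with the smallest p in each comparison; pathway lists were named by up to 2 genes with the smallest p. Other called genes and the pairs named as chosen after their values were seen lie outside that rule. The members and lists were chosen with earlier results of these data known. No 2 libraries were identical. 1 marker of the B cell list is not reported here.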

Additional observations from a re-analysis of the deposited data

How the results depend on the processing

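Of 1234 values recomputed for 70 results, 1045 counted as the same, 35 reversed, 70 lost and 57 gained a call, and 27 moved. The cause was not tested. Of the 1045, 796 were fold changes of single genes that kept their direction and their side of the threshold. The other 249 were counts of calls equal or near to the reported one, medians shifted by less than 0.114, and log2 ratios of unchanged direction. The number of genes called in KO TAC against WT TAC, 11 as reported, was 24 with library totals in place of TMM, 22 by DESeq2, 26 by limma-voom, 17 from the compared groups alone and 28 with WT TAC replicate 1 and KO sham replicate 1 both left out, and 0 to 24 with 1 library left out. In WT TAC against WT sham (0 as reported) it was 6 by DESeq2, 6 by limma-voom, 7 without both libraries and 0 to 5 with 1 left out. In KO TAC against KO sham (0 as reported) it was 2 by DESeq2, 27 by limma-voom, 26 without both and 0 to 24 with 1 left out, and for the interaction (0 as reported) 20 by limma-voom, 24 without both and 0 to 7 with 1 left out. In KO sham against WT sham it was 0 in every alternative run. Such counts depend on the share of all genes called in the same setting. For KO TAC against WT TAC that share was 20.4% as reported and 53.8% without both libraries. It is not given here for DESeq2, limma-voom, library totals or the compared groups alone, so those counts say nothing particular about proteasome genes. With library totals the medians of the proteasome genes were -0.58 for KO TAC against WT TAC, 0.34 for WT TAC against WT sham, -0.28 for KO TAC against KO sham and -0.65 for the interaction, while the medians of all genes shifted by -0.22, 0.15, -0.17 and -0.33.

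The direction of some single genes that were not called reversed. In KO TAC against WT TAC, Psmb10 was -0.092 with library totals and -0.019 to 0.37 with 1 library left out. In KO sham against WT sham, Psmb8 was -0.23 by limma-voom, -0.28 without both libraries and -0.30 to 0.76 with 1 left out; Psmb10 was -0.063, -0.049 and -0.062 to 0.30; Psmb7 was 0.055, 0.12 and -0.67 to 0.11 under the same 3 settings. Psmb9 was -0.10 without both and -0.11 to 0.50 with 1 left out. In WT TAC against WT sham, Psmb9 was -0.0034 without both and -0.016 to 0.85 with 1 left out, and Psmb7 was 0.023 by limma-voom, 0.16 without both and -0.32 to 0.15 with 1 left out. For the interaction, Psmb9 was -0.16 with library totals and -0.066 to 0.83 with 1 left out, and Psmb10 was 0.34 by limma-voom, 0.015 with the replicate block, 0.41 without both and -0.20 to 0.21 with 1 left out. Log2 ratios with 1 library left out ran from -0.29 to 0.45 (Psmb8 to Psmb5), -0.0080 to 0.49 (Psmb9 to Psmb6) and -0.17 to 1.41 (Psmb10 to Psmb7) in KO sham against WT sham, and from -0.25 to 0.33 and -0.29 to 0.26 for the first 2 pairs in WT TAC against WT sham.

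Same-numbered libraries did not deviate together (correlations of deviations from the group means -0.19 to 0.06). These deviations rest on 3 libraries a group, with replicate 1 apart in KO sham and WT TAC. They therefore cannot decide whether the numbers pair libraries. A fit with a replicate block called 9 genes in KO TAC against WT TAC and 0 in each other comparison. The share of all genes called in that fit is not given here, so these counts say nothing particular about proteasome genes. With 3 libraries a group and no statement of separate animals, small differences are not detectable, and Psma8, with 2 to 22 counts, is limited by depth.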

Other observations

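Longer proteasome transcripts tended to have lower fold changes, most in WT TAC against WT sham and least in the interaction. Across the 44 tested genes, the Spearman correlation of spliced length with log2 fold change was -0.26 in KO TAC against WT TAC, -0.51 in WT TAC against WT sham and -0.44 in KO TAC against KO sham, against 0.13, -0.32 and -0.10 over 13482 genes with a length. In KO sham against WT sham it was -0.31 (0.0026 over all genes with a length), and in the interaction -0.13 (0.19 over all). These are correlations across genes of the same libraries, and genes are not independent replicates. In KO TAC against WT TAC the 22 genes longer than the median had a median log2 fold change of -0.47 and the 22 shorter ones -0.29. For the interaction these medians were -0.33 and -0.31.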
